A study of Phyllostachys violascens with 16 samples.

Results

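Raffinose is a soluble sugar that plants build by moving a galactose from galactinol onto sucrose, a step carried out by galactinol-sucrose galactosyltransferase, also called raffinose synthase. Galactinol itself is made from UDP-galactose and myo-inositol by galactinol synthase, and alpha-galactosidases take the galactose off again. Sugars of this family are known to accumulate in many plants under cold or drought and to carry carbon in some seeds and phloem saps. Lei bamboo (Phyllostachys violascens) is grown for its edible shoots, and the transcripts described here are those of 2 of its genes, PH02Gene11640, whose closest described protein is probable galactinol-sucrose galactosyltransferase 6, and PH02Gene07569, whose closest described protein is putative galactinol-sucrose galactosyltransferase 1. They are 2 of the 50936 genes in the deposited table. They were picked by gene identifier because of their rise at 6 days of storage over harvest, so their values in those libraries are given as a description and are not tested.

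RNA-seq was run on the middle segment (about 10 cm) of spring shoots 30 to 40 cm tall. All shoots, including those of day 0, carry the label of storage at 4 °C, and polyethylene bags held the stored ones at a humidity of 60 to 70%. The groups were 0d, 2d, 6d and 20d of storage, with 4 libraries each, and each library pooled 6 shoots from a lot of 30. No shoots held at another temperature were analysed here, so cold cannot be told apart from time since harvest or from packing, and in whole tissue fewer cells of a type cannot be told apart from less RNA per cell.

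Total counts ranged from 51.7 to 64.9 M per library. Of 23 genes described as knotted-1-like or rough sheath homeobox proteins, which mark young stem and meristem, 17 were detected in every 0d library, whereas 0 of the 3 genes for secondary wall cellulose synthases were. Of lists for other tissues, 12 of 25 genes described as pollen-specific or pollen allergens were detected in every 0d library, with a sum of 187 to 198 FPKM, and 5 of 26 described as seed storage proteins, with 58.0 to 67.9 FPKM. The chlorophyll a-b binding protein genes, markers of green tissue, summed to between 304 and 319 FPKM (fragments scaled by gene length and library size) at 0d, and 10 of 15 were detected in every library. Their sum was between 13.3 and 13.8 FPKM at 2d, between 14.5 and 17.0 FPKM at 6d and between 1.60 and 2.50 FPKM at 20d. At 20d 6 of the 15 were at 0 in every library, against 3 already at 0d. The part of this loss in the results below was not tested.

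PH02Gene11640 lies on scaffold 6 (11758483 to 11762361, minus strand) and spans 3879 bp. PH02Gene07569 lies on scaffold 13 (55753263 to 55758008, minus strand) and spans 4746 bp. Exons and untranslated regions are not given in the deposited table, and its genome build is not given in the sources used here. Both genes carry the KEGG entry K06617, raffinose synthase, which 14 genes of the table share, and both are annotated with galactinol-sucrose galactosyltransferase activity, as are 13 of the 14. The annotation does not name synthesis alone. PH02Gene11640 is also annotated with raffinose alpha-galactosidase activity and raffinose catabolic process, as are 10 of the 14 genes, and PH02Gene07569 is not. In Arabidopsis the gene with the number 6 name is DARK INDUCIBLE 10, which is induced in darkness and by sugar starvation, and the gene with the number 1 name is SEED IMBIBITION 1. Neither is the well-characterised raffinose synthase of Arabidopsis leaves, so whether the bamboo genes make or break down raffinose is not known from their names. Whether the shoots were stored in the dark is not stated.

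PH02Gene11640 was present at harvest and highest on day 2. Its level at 0d was 9.99, 9.59, 8.75 and 9.18 FPKM in replicates 1 to 4. At 2d it was 113, 112, 110 and 115 FPKM. At 6d it was 84.9, 84.7, 86.5 and 88.4 FPKM, and at 20d it was 52.2, 53.6, 52.6 and 50.3 FPKM. The 4 groups did not overlap, and every stored library lay above every harvest library. The order of the group means was 2d (112 ± 2.14 FPKM, SD, n = 4), 6d (86.1 ± 1.70), 20d (52.2 ± 1.34) and 0d (9.38 ± 0.530). The mean at 2d was 12 times that at 0d, the mean at 6d 9.18 times and the mean at 20d 5.56 times. Replicates differed little: the coefficient of variation was 1.90% at 2d, against a median of 2.74% over the 916 genes within 1.5-fold of its level there.

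PH02Gene07569 was close to the limit of detection at harvest and abundant on day 6 alone among the 4 times sampled. Its level at 0d was 0.594, 0.916, 0.437 and 0.476 FPKM in replicates 1 to 4. At 2d it was 1.63, 1.37, 1.74 and 1.5 FPKM. At 6d it was 45.0, 41.4, 42.9 and 42.3 FPKM, and at 20d it was back to 1.73, 2.00, 1.74 and 1.90 FPKM. All 4 libraries of 6d were high and all other 12 were low, with no value in between. The order of the means was 6d (42.9 ± 1.52 FPKM, SD, n = 4), 20d (1.84 ± 0.132), 2d (1.56 ± 0.159) and 0d (0.606 ± 0.217). The neighbours 20d and 2d in that order overlapped, and no other pair of times did. The mean at 6d was 70.8 times that at 0d, 27.5 times that at 2d and 23.3 times that at 20d. The 0d libraries held between 90 and 163 counts of the gene, which is about 22.5 to 40.8 sequenced fragments each, so the harvest level and the ratios to it are the least precise of these values. Its coefficient of variation at 0d was 35.9%, against a median of 26.0% over the 589 genes of like level.

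**Figure D1:**
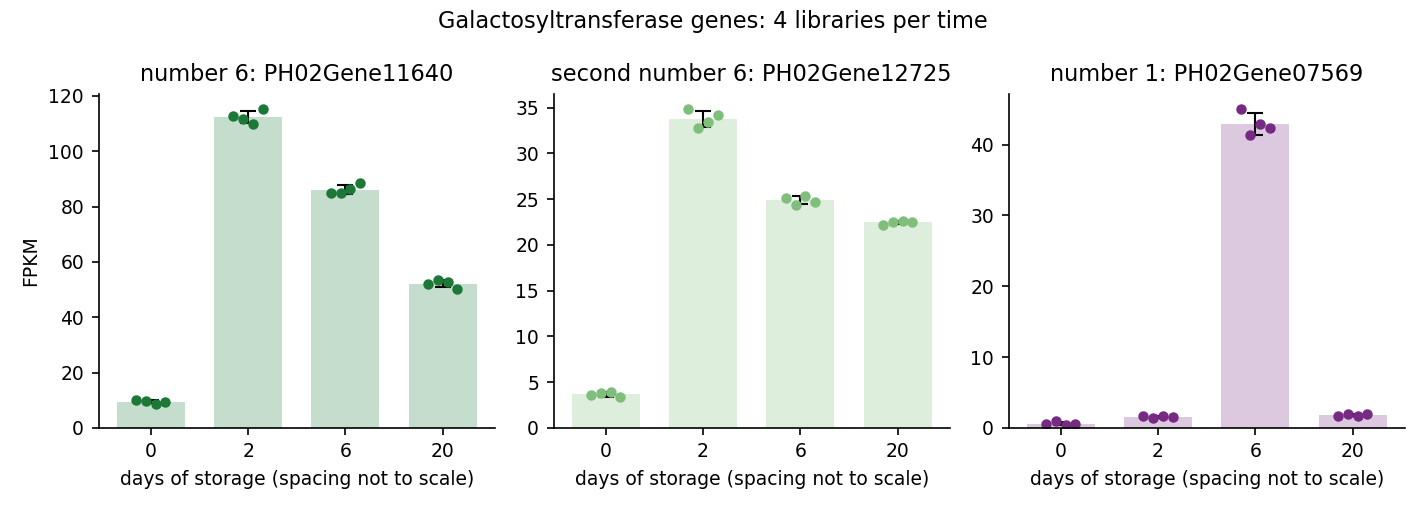
FPKM of PH02Gene11640, of a second gene with the number 6 name (PH02Gene12725) and of PH02Gene07569 by days of storage. Points are libraries, bars are means and error bars are SD (n = 4). Both number 6 genes are highest at 2d (means of 112 and 33.8 FPKM), and PH02Gene07569 stands at 42.9 FPKM at 6d and below 2.01 FPKM in all other libraries.

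On the scale of edgeR's fitted log2 changes (± SE), PH02Gene11640 stood 3.83 ± 0.03 above 0d at 2d, 3.37 ± 0.03 above at 6d and 2.79 ± 0.03 above at 20d. PH02Gene07569 stood 1.63 ± 0.16, 6.33 ± 0.14 and 1.93 ± 0.15 above 0d at the same times. These comparisons share the 0d libraries. From 2d to 6d the fitted log2 change was -0.46 for PH02Gene11640 and 4.70 for PH02Gene07569, and from 6d to 20d it was -0.58 and -4.40. All of these use libraries on which the genes were chosen and are given without a test.

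The comparison of 20d with 2d uses none of the libraries on which the genes were chosen. A gene was called there when its Benjamini-Hochberg adjusted p over all 24944 genes tested was below 0.05 and its log2 change was at least 1 in size. PH02Gene11640 fell between 2d and 20d by a log2 change of -1.05 ± 0.03 (SE; edgeR adjusted p = 1.1e-20, lower in 4 of 4 libraries at 20d than in any at 2d), and it was called. Such a fall was common: 19.7% of all genes tested were called lower at 20d than at 2d, and 36.6% were called in either direction. For PH02Gene07569 the log2 change was 0.30 ± 0.13 (SE; edgeR adjusted p = 0.0488), which is under the limit of size and was not called, and the libraries of the 2 times overlapped. Its adjusted p ranged from 0.00119 to 0.163 over the alternative settings, and its log2 change from 0.15 to 0.36.

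The genes therefore kept no fixed ratio to each other. The level of PH02Gene11640 per level of PH02Gene07569 was 15.5 at 0d, 72.1 at 2d, 2.01 at 6d and then 28.3 at 20d, as ratios of mean FPKM. It was between 63.2 and 81.4 in the libraries of 2d, between 1.89 and 2.09 in those of 6d and between 26.4 and 30.3 in those of 20d. Between 2d and 20d the log2 ratio of PH02Gene07569 to PH02Gene11640, with 1 FPKM added to each, went from -5.47 ± 0.104 to -4.22 ± 0.0723 (SD, n = 4 each). The difference of 1.25 was tested by a two-sided exact permutation test over libraries (p = 0.0286), which is the smallest p that 4 against 4 libraries can give. With any library left out the smallest possible p is 0.0571, which was the value found each time.

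A second gene with the number 6 name, PH02Gene12725, lies on scaffold 8 (8448994 to 8452855, minus strand). Its level per library was 3.60, 3.76, 3.96 and 3.37 FPKM at 0d, and 34.8, 32.7, 33.4 and 34.2 FPKM at 2d. It was 25.1, 24.4, 25.3 and 24.7 FPKM at 6d, and 22.2, 22.5, 22.6 and 22.5 FPKM at 20d. In FPKM, which does not carry the scaling of the fit, PH02Gene12725 had the same order of times as PH02Gene11640 at a lower level. Its 4 groups did not overlap in FPKM, though in the fit 6d and 20d barely differed. From 6d to 20d the fitted log2 change was -0.58 for PH02Gene11640 and -0.01 for PH02Gene12725, and the mean of the second went from 28.9% to 43.0% of that of the first. Its log2 changes over 0d were 3.45 ± 0.04 (SE) at 2d, 2.93 ± 0.04 at 6d and 2.92 ± 0.04 at 20d, with edgeR adjusted p of 4.81e-28, 8.72e-27 and 4.63e-27. From 2d to 20d its log2 change was -0.53 ± 0.04 (SE; edgeR adjusted p = 1.12e-12), under the limit of size. The counting method is not stated, so how reads shared by these similar genes were divided is uncertain. Summed, the pair stood at 13.1 ± 0.495 FPKM at 0d, 146 ± 2.74 at 2d, 111 ± 1.77 at 6d, then 74.6 ± 1.34 at 20d (SD, n = 4), which are 11.2, 8.50 and 5.71 times the sum at 0d.

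By description 9 genes were grouped as galactosyltransferases, with stachyose synthases (which add a galactose to raffinose) and seed imbibition proteins included. Of these, 7 passed the mean of 1 FPKM required for testing. PH02Gene03267, with the number 2 name, was at 0 in every library, and PH02Gene44870, stachyose synthase-like, was below that mean. Their FPKM summed over the 9 genes to 167 ± 6.00 at 0d, 487 ± 7.58 at 2d, 608 ± 29.1 at 6d, then 534 ± 8.58 at 20d (SD, n = 4). PH02Gene11640 made up 5.61% of the sum at 0d, 23.1% at 2d, 14.2% at 6d, then 9.76% at 20d. PH02Gene07569 made up 7.07% at 6d and below 0.37% at each other time. Most of the sum at every time was PH02Gene34575, described as a seed imbibition protein, with 148 ± 5.94 FPKM at 0d, 333 ± 6.08 at 2d, 440 ± 26.1 at 6d, then 414 ± 6.52 at 20d.

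Of the 5 tested galactosyltransferase genes other than the pair, 3 were called higher at 2d than at 0d, 4 at 6d and 3 at 20d, and 0 were called lower at any of these times. As background, 13.1% of all genes tested passed as higher and 18.1% as lower at 2d, 16.8% as higher and 21.6% as lower at 6d, and 19.5% as higher and 24.5% as lower at 20d. The median log2 change of the 5 was 1.02 at 2d, 1.84 at 6d and 1.79 at 20d, where that of all genes tested was between -0.02 and 0.02. With total-count scaling the genes called higher made up 28.5%, 33.6% and 31.0% of all called genes at 2d, 6d and 20d, where they made up 42.0%, 43.7% and 44.3% with the scaling used. PH02Gene34575 rose by a log2 change of 1.42 ± 0.04 (SE) at 2d, 1.74 ± 0.04 at 6d and 1.79 ± 0.04 at 20d (edgeR adjusted p = 2.24e-16, 9.21e-18 and 4.62e-18).

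Grouped by the KEGG entry K06617 in place of the description, a grouping chosen after the data were seen, 12 genes other than the pair were found and 6 were tested. Of these, 2 were called higher and 1 lower at 2d, 5 higher and 1 lower at 6d, and 4 higher and 1 lower at 20d, each against harvest. The shares of all genes tested at these times were 13.1%, 16.8% and 19.5% higher, and 18.1%, 21.6% and 24.5% lower. The lower call was PH02Gene48794, described as a hypothetical protein, whose gene model spans 505 bp. It was at 3.86 ± 1.16 FPKM at harvest, and its means in storage lay between 0.792 and 0.997 FPKM (log2 change at 6d -2.01 ± 0.32 SE). PH02Gene49729, also a hypothetical protein, was at 0.196 ± 0.0815 FPKM at harvest and 0.208 ± 0.0973 at 2d. It went to 1.55 ± 0.397 at 6d and 3.01 ± 0.119 at 20d (log2 change at 6d 3.12 ± 0.30 SE). Each of these hypothetical protein genes passed the mean of 1 FPKM only through the times when it was high. The filter favours their calls, so their changes are given without a test. The higher calls at 6d and 20d include PH02Gene49729, so the counts above describe this grouping and test nothing.

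The members of the family differed in when they were high. PH02Gene48920, with the number 2 name (in Arabidopsis SEED IMBIBITION 2, an alkaline alpha-galactosidase), was at 2.16 ± 0.250 FPKM at 0d, 1.26 ± 0.240 at 2d, 6.84 ± 0.870 at 6d, then 40.2 ± 1.64 at 20d. From 2d to 20d it rose by a log2 change of 5.06 ± 0.12 (SE; edgeR adjusted p = 4.16e-17), in the interval in which PH02Gene11640 fell. PH02Gene10661, a galactosyltransferase-like gene, was highest at 6d, as was PH02Gene07569, but at 4.72 ± 0.609 FPKM, and it was at 1.33 ± 0.220 at 0d, 2.10 ± 0.297 at 2d and 1.78 ± 0.198 at 20d. Its log2 change at 6d over 0d was 2.00 ± 0.13 (SE; edgeR adjusted p = 5.12e-13). At 2d its log2 change over 0d of 0.91 was under the limit of size, and without 0d replicate 2 it was 1.03 and called. PH02Gene32109, described as stachyose synthase, was called higher at 2d than at 0d and lower at 20d than at 2d, at levels between 1.03 and 2.24 FPKM. Its call at 2d was lost without 0d replicate 2 or 3 or without 2d replicate 3 or 4, with log2 changes of 0.97, 0.78, 0.99 and 0.95, and its call at 20d over 2d without 2d replicate 4 (-0.97) or 20d replicate 4 (-0.81). The call at 2d was also lost with total-count scaling (0.77) and in limma on log2(FPKM + 1) (0.53) and log2(FPKM + 0.1) (0.85), and that at 20d over 2d in limma on log2(FPKM + 1) (-0.69).

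**Figure D2:**
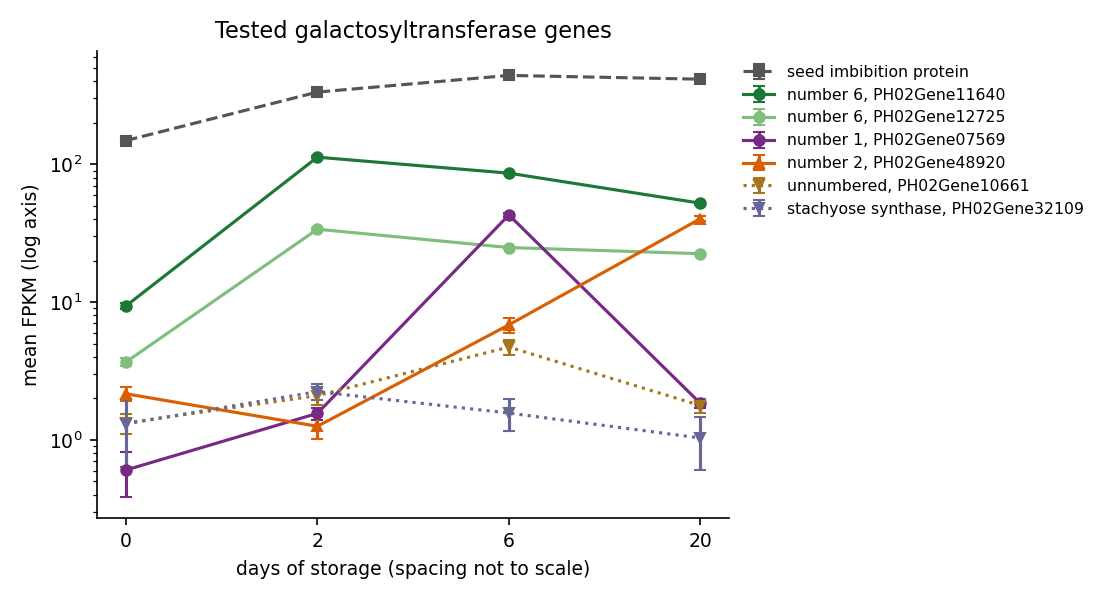
Mean FPKM (log axis) of the 7 tested galactosyltransferase genes by days of storage, with SD (n = 4). PH02Gene11640 and PH02Gene12725 both have their maximum at 2d, and from 6d to 20d the first goes from 86.1 to 52.2 FPKM and the second from 24.9 to 22.4 FPKM. PH02Gene07569 has its maximum at 6d and PH02Gene48920 at 20d (40.2 FPKM), while the seed imbibition protein gene is above all others at every time.

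Among all genes tested, a maximum at 2d, as in PH02Gene11640, was found in 14.1%, and a maximum at 6d in 20.0%. The isolation of the day 6 value of PH02Gene07569 was rarer. With 1 FPKM added, its mean at 6d was 15.4 times its highest mean at another time, and of the 24944 genes tested it was the only gene for which this ratio reached 10. The gene was chosen for its value at 6d, so this rank describes it and tests nothing.

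Galactinol synthase supplies the galactose donor for the reaction. Of 10 genes so described only 3 passed the mean of 1 FPKM, and all 3 stayed below 12 FPKM in their group means. PH02Gene28670 (galactinol synthase 2) was at 6.28 ± 0.562 FPKM at 0d, 2.60 ± 0.266 at 2d, 4.86 ± 0.156 at 6d, then 11.3 ± 1.04 at 20d. It was called lower at 2d than at 0d with a log2 change of -1.02, a call lost without 0d replicate 4 (-0.96) or without 2d replicate 2 (-0.98) and with no FPKM filter (-0.95). From 2d to 20d it rose by a log2 change of 2.18 ± 0.10 (SE; edgeR adjusted p = 2.63e-16), while PH02Gene11640 fell. PH02Gene36619, also galactinol synthase 2, was at 1.63, 1.29, 3.01 and 3.95 FPKM at 0d, 2d, 6d and 20d. It was called higher at 6d than at 0d with a log2 change of 1.06, a call lost without 0d replicate 1 (0.94) or 6d replicate 3 (0.995), with total-count scaling (0.87) and in limma with 1 FPKM (0.61) or 0.1 FPKM (0.85) added. The third gene, PH02Gene25695, was at 2.21, 2.88, 3.89 and 0.21 FPKM and was called lower at 20d. Its log2 change at 6d over 0d was 0.99, and it reached the limit of size with replicate 1 (1.02) or 2 (1.0) of 0d left out and with replicate 1 (1.03) or 3 (1.0) of 6d left out. At 2d, when PH02Gene11640 was highest, 0 of the 3 were called higher and 1 was called lower. The shares over all genes tested were 13.1% higher and 18.1% lower at that time.

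UDP-galactose, the other substrate for galactinol, is made from UDP-glucose by UDP-glucose 4-epimerase. Of 13 genes in this supply list 10 were tested, of which 2 were called higher and 1 lower at 2d, 4 higher and 0 lower at 6d, and 3 higher and 1 lower at 20d, each against the harvest libraries. The lower call at 2d was lost (0 called) without 2d replicate 2 or 4, and that at 20d without 0d replicate 4 or 20d replicate 1 or 3. The median log2 change of the list was -0.14 at 2d, 0.26 at 6d and 0.14 at 20d. Over all genes tested, 13.1%, 16.8% and 19.5% were called higher at these times, and 18.1%, 21.6% and 24.5% lower. PH02Gene34943 (UDP-glucose 4-epimerase 1) was at 110 ± 2.75 FPKM at 0d, 1302 ± 14.6 at 2d, 913 ± 5.30 at 6d, then 629 ± 3.85 at 20d. Its log2 changes over 0d were 3.82 at 2d, 3.23 at 6d and 2.83 at 20d (SE 0.02 each; edgeR adjusted p = 7.36e-36, 2.13e-34 and 6.06e-34). PH02Gene26217 (UDP-glucose 4-epimerase 3) had another course, at 11.3, 6.51, 26.9 and 263 FPKM, and rose by a log2 change of 5.40 ± 0.06 (SE) from 2d to 20d (edgeR adjusted p = 7.23e-24).

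Alpha-galactosidases remove galactose from raffinose and from other galactosides. Of 8 genes 7 were tested, of which 2 were called higher and 3 lower at 2d, 0 higher and 2 lower at 6d, and 0 higher and 2 lower at 20d, with list medians of -0.81, -0.46 and -0.20 on the log2 scale. Of all genes tested, 18.1%, 21.6% and 24.5% were called lower at these times, so 2 of 7 at 6d and 20d is near the share over all genes. PH02Gene36375 fell from 109 ± 2.99 FPKM at 0d to 10.8 ± 0.653 at 2d, 3.35 ± 0.427 at 6d and 2.08 ± 0.180 at 20d, a log2 change of -4.85 ± 0.07 (SE) at 6d (edgeR adjusted p = 1.79e-26). PH02Gene36374 fell at 2d, to 8.25 ± 0.745 FPKM from 35.3 ± 1.79, and was back at 43.7 ± 0.526 FPKM by 20d. The most abundant over all times, PH02Gene17976 (alpha-galactosidase 3-like), was at 81.2, 38.9, 40.7 and 75.0 FPKM, with log2 changes over 0d under the limit of size at every time, though with total-count scaling they reached it at 2d (-1.06) and 6d (-1.01). Its log2 change from 2d to 20d was 1.01 and was called, but the call was lost without 2d replicate 2 (0.987), without 20d replicate 3 (0.9996), with no FPKM filter (0.998), at a mean of at least 5 FPKM (0.9995), in DESeq2 and limma, and with median-of-ratios or total-count scaling.

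**Figure D3:**
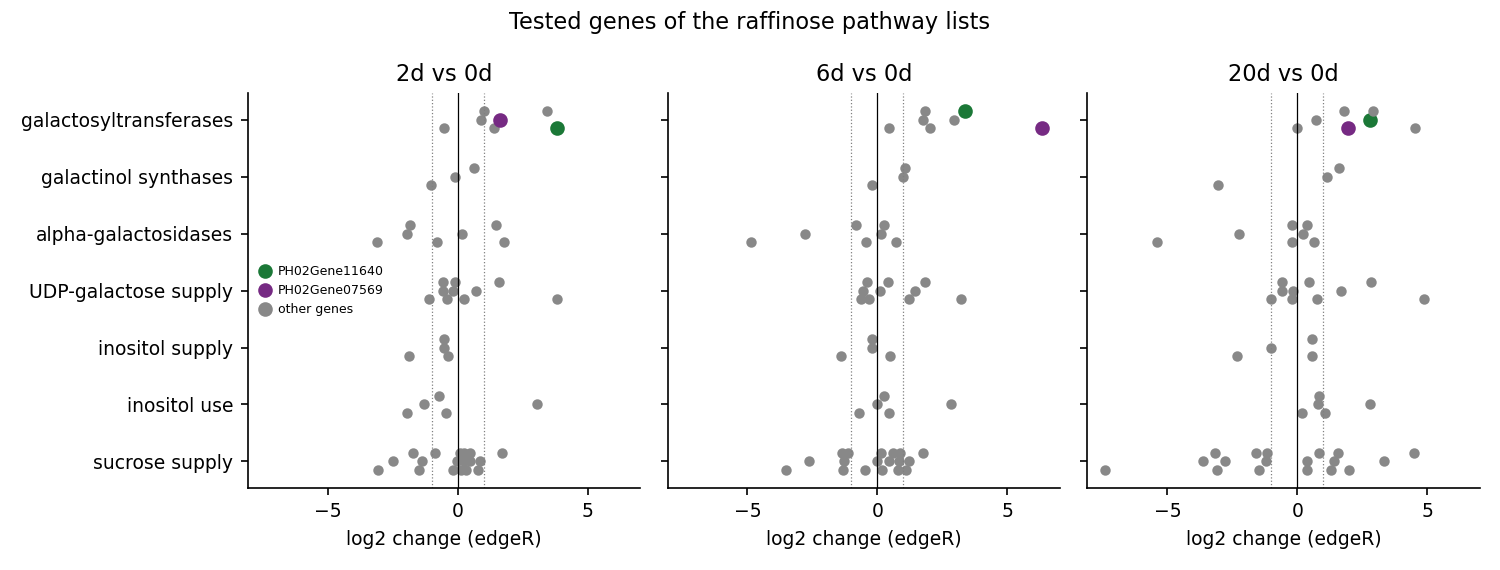
Log2 change over 0d (edgeR) of every tested gene in the raffinose pathway lists at 2d, 6d and 20d, with dotted lines at the limits of 1 and -1. Green and purple points are PH02Gene11640 and PH02Gene07569, drawn with the galactosyltransferases. That row lies mostly to the right of 0 at each time, while the alpha-galactosidases and the sucrose and inositol lists spread to both sides.

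Myo-inositol is released when galactose passes from galactinol to sucrose, and it is also made anew. Of 10 genes for its supply 4 were tested, with 1 called lower at 2d, 1 at 6d and 2 at 20d (1 without 20d replicate 2) and 0 called higher. PH02Gene15254, inositol-3-phosphate synthase, which starts this route, fell from 37.4 ± 1.15 FPKM at 0d to 12.5 ± 0.608 at 6d (log2 change -1.41 ± 0.06 SE, edgeR adjusted p = 6.23e-17). The most abundant gene of this list, PH02Gene28046 (inositol monophosphatase 3), was at 23.4, 13.6, 18.0 and 27.9 FPKM at 0d, 2d, 6d and 20d. It was called higher at 20d than at 2d, a call lost in limma on log2(FPKM + 1) (0.98). Of 9 genes that use or move inositol 5 were tested, with 1 higher and 2 lower at 2d, 1 higher and 0 lower at 6d, and 2 higher and 0 lower at 20d (1 higher without 0d replicate 2 or 20d replicate 2). PH02Gene38837, inositol oxygenase, which turns inositol to glucuronate, rose from 11.7 ± 1.37 FPKM to 81.3 ± 2.39 at 2d, and was at 74.0 ± 3.23 at 6d and 65.5 ± 2.74 at 20d (log2 change at 6d 2.83 ± 0.06 SE, edgeR adjusted p = 3.36e-23). PH02Gene50374, inositol transporter 1, was at 9.80, 3.38, 11.7 and 13.8 FPKM. The sucrose list joined genes described as sucrose phosphate synthase or sucrose-phosphatase with genes described as sucrose synthase. Of its 27 genes 18 were tested. At 2d 1 was called higher and 5 lower, at 6d 3 and 6, and at 20d 6 and 9. These counts do not separate the kinds, so they do not show the direction of sucrose supply. Over all genes tested, 13.1%, 16.8% and 19.5% were called higher at these times. The shares called lower were 18.1%, 21.6% and 24.5%, which is the background for the inositol lists too. The sucrose synthase genes PH02Gene27917 and PH02Gene47723 passed the mean of 1 FPKM only through 0d (5.70 and 2.92 FPKM). The filter favours calls of both as lower after harvest. PH02Gene37903, sucrose phosphate synthase, which makes the acceptor sugar's precursor, went from 201 ± 2.31 FPKM at 0d to 183 ± 5.80 at 2d, 327 ± 3.23 at 6d, then 633 ± 12.7 at 20d. Its fitted log2 change at 2d over 0d was 0.12, in the other direction, since FPKM does not carry the scaling of the fit. The sucrose synthase gene PH02Gene46034 fell from 60.4 ± 1.75 FPKM at 0d to 4.72 ± 0.187 at 6d, and another, PH02Gene02657, was highest at 2d with 668 ± 6.10 FPKM and at 23.2 ± 0.898 FPKM at 20d.

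In Arabidopsis, galactinol and raffinose synthesis genes are known targets of heat stress factors and of DREB/CBF factors, which act in heat, drought and cold. Of 18 genes whose description names DREB or CBF only 4 passed the mean of 1 FPKM. At 2d 1 was called higher (2 without 0d replicate 2) and 1 lower. At 6d 0 were called, and at 20d 1 was called higher and 0 lower. The 4 include PH02Gene06674, described as a CBF1 interacting corepressor and not as a DREB or CBF factor. Its log2 change at 2d over 0d was 0.97, under the limit of size. The higher call at 20d was PH02Gene23182 (DREB1C), at 1.43, 0.11, 0.89 and 3.66 FPKM at 0d, 2d, 6d and 20d. It passed the mean of 1 FPKM only through 20d, so the filter favours that call and the call tests nothing. PH02Gene41094, DREB2C-like, was at 44.1 ± 0.705 FPKM at 0d, 123 ± 2.21 at 2d, 77.7 ± 4.77 at 6d, then 30.1 ± 0.900 at 20d. Its log2 change at 6d was 0.99 and reached the limit of size without 0d replicate 1 (1.0) or without 6d replicate 2 (1.02). Of 42 heat stress factor genes 26 were tested. At 2d 3 were called higher and 10 lower, at 6d 3 and 8, and at 20d 4 and 6. Over all genes tested, 13.1%, 16.8% and 19.5% were called higher at these times, and 18.1%, 21.6% and 24.5% lower. The 6 of 26 called lower at 20d is near the share over all genes. PH02Gene01234 and PH02Gene50612 passed the mean of 1 FPKM only through 20d (6.25 and 3.67 FPKM), and PH02Gene48407 only through 0d (2.60 FPKM). The filter favours calls of PH02Gene01234 and PH02Gene50612 as higher at 20d and of PH02Gene48407 as lower after harvest. Counts that include such calls test nothing about the list. PH02Gene23029, heat stress factor A-2c, fell from 25.1 ± 0.668 FPKM at 0d to 5.97 ± 0.484 at 6d, while PH02Gene27951, heat stress factor B-1, was at 7.09, 6.25, 10.1 and 36.5 FPKM. The most abundant heat stress factor gene, PH02Gene08915 (A-1), was at 26.0, 27.3, 33.1 and 21.4 FPKM at 0d, 2d, 6d and 20d. Since the number 6 name is that of a dark-inducible gene in Arabidopsis, genes of the dark and sugar starvation response were also counted. Of 15 such genes 7 were tested, with 4 higher and 0 lower at 2d, 2 higher and 0 lower at 6d, and 4 higher and 0 lower at 20d, where 13.1%, 16.8% and 19.5% of all genes tested were called higher. The most abundant, PH02Gene23545, an asparagine synthetase, was at 48.1 ± 2.13 FPKM at 0d and at 387 ± 12, 390 ± 14.3 and 663 ± 3.57 FPKM at 2d, 6d and 20d. PH02Gene13215, mannose-6-phosphate isomerase 1, was at 2.39, 2.77, 2.49 and 8.97 FPKM. The counts of 4 called higher in this list at 2d and at 20d fell to 3 with some libraries left out. Most of its 7 tested genes are described as asparagine synthetases, PH02Gene35224 only as an asparagine synthetase domain-containing protein.

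Profiles were compared over the 16 libraries as log2(FPKM + 1) centred on each gene's mean, and likeness was the root mean square difference between centred profiles, where 0 is identity. Among the 16194 genes with a mean of at least 5 FPKM, the described genes most like PH02Gene11640 were PH02Gene25223, a bZIP transcription factor, at a difference of 0.0865, and PH02Gene34943, the epimerase above, at 0.0876. The next were PH02Gene33593 (MYB4d, 0.146), PH02Gene10612 (a myotubularin-related protein, 0.166) and PH02Gene36962 (guanosine deaminase, 0.182). The bZIP gene stood at 26.6 ± 2.38 FPKM at 0d, 282 ± 19.2 at 2d, 223 ± 17.0 at 6d, then 132 ± 4.53 at 20d. The second number 6 gene, PH02Gene12725, ranked 16 at 0.289, and PH02Gene07569 ranked 12113 at 1.68. PH02Gene07569 had no such close companions. The described genes most like it were PH02Gene21590 (histone H4, 0.800), PH02Gene15812 (histone H2A, 0.818), PH02Gene15459 (the vesicle protein YKT61, 0.932), PH02Gene44357 (histone H2B.2-like, 0.943) and PH02Gene37512 (something about silencing protein 10, 0.952). The histone H4 gene stood at 33.8 ± 2.38 FPKM at 6d and between 3.54 and 4.58 FPKM in its means at the other times. All points share the same libraries.

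**Figure D4:**
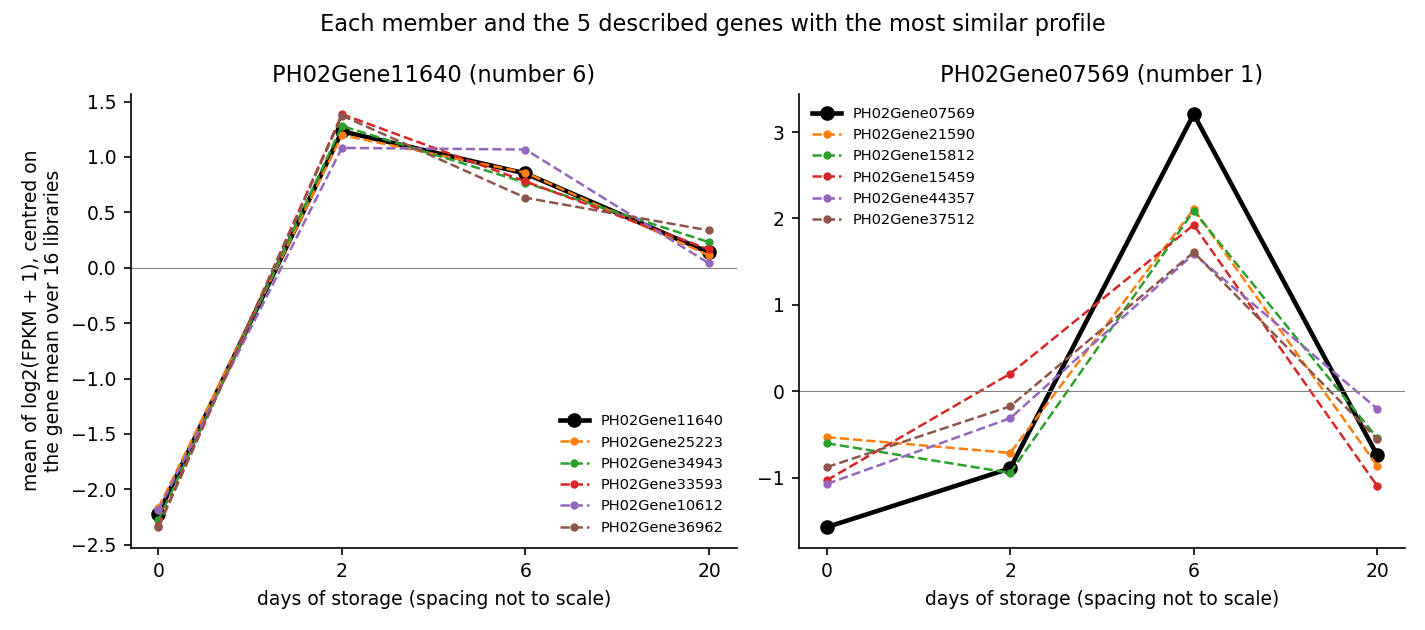
Centred log2(FPKM + 1), as group means over 4 libraries, of each gene (black) and of the 5 described genes most like it (dashed) by days of storage. The lines for PH02Gene11640 lie close to each other, whereas PH02Gene07569 rises above all 5 of its nearest genes at 6d.

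The gene next to PH02Gene07569 on the scaffold was also high at 6d. PH02Gene07568, described as cytochrome c oxidase assembly protein COX15, which takes part in making the haem of the respiratory chain's last complex, lies on the same strand of scaffold 13 (55747859 to 55753041), with 221 bp between the genes. With both on the minus strand, it is downstream of PH02Gene07569. Its level was 0.731, 0.605, 0.873 and 0.410 FPKM at 0d, and 2.04, 1.63, 1.59 and 1.52 FPKM at 2d. It was 13.5, 13.2, 12.9 and 12.8 FPKM at 6d, and 0.761, 0.414, 0.817 and 0.561 FPKM at 20d. As for PH02Gene07569, the libraries of 6d were far above all others. Its log2 changes over 0d were 1.61 ± 0.19 (SE) at 2d, 4.48 ± 0.19 at 6d and 0.27 ± 0.20 at 20d, given without a test because it was singled out after its values were seen. From 2d to 20d its log2 change was -1.34 ± 0.19, where that of PH02Gene07569 was 0.30 ± 0.13. Its mean level was 108% of that of PH02Gene07569 at 0d, 109% at 2d, 30.6% at 6d, then 34.6% at 20d. In likeness to PH02Gene07569 it ranked 2 of the 24943 other genes tested, at 0.723, after PH02Gene33859, an uncharacterised gene at 9.59 ± 0.608 FPKM at 6d and below 0.29 FPKM in its means at the other times.

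Another gene with the COX15 description, PH02Gene31239, was at 4.26, 3.10, 3.19 and 2.86 FPKM at 0d, 2d, 6d and 20d, with no rise at 6d (log2 change over 0d -0.24 ± 0.13 SE). Whether reads running on from PH02Gene07569 were counted for PH02Gene07568 was not tested, since the counts are per gene. The nearest gene on the other side, PH02Gene23868 (a BTB/POZ domain protein), lies 104 kb away and had its highest mean at 20d (51.4 FPKM, from 15.7 FPKM at 0d). The genes nearest to PH02Gene11640, at 14.4 to 153 kb, did not share its course: the tested one next to it on one side, PH02Gene11642 (26S proteasome subunit 6A), was at 134, 119, 123 and 78.4 FPKM.

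**Figure D5:**
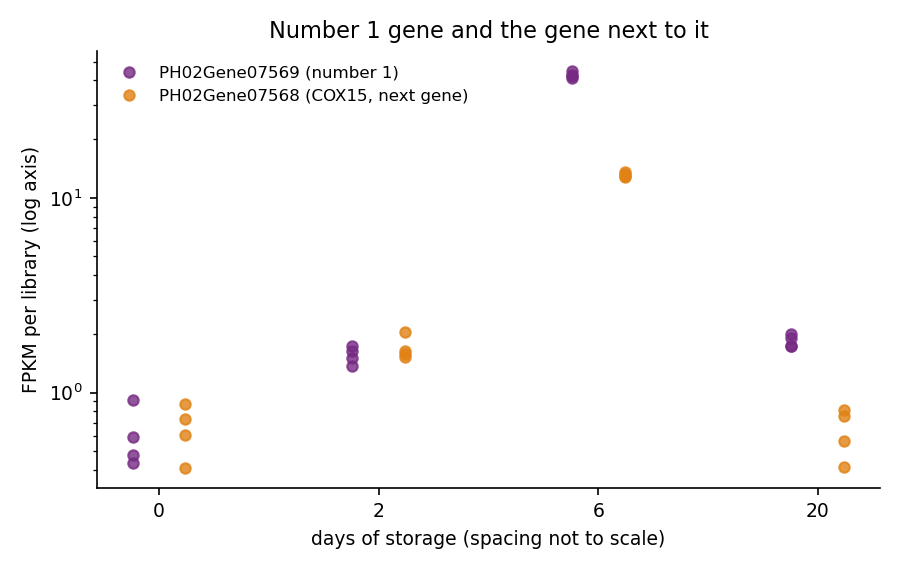
FPKM per library (log axis) of PH02Gene07569 and of PH02Gene07568, the gene 221 bp downstream, by days of storage. Both are highest at 6d, at 41.4 to 45.0 FPKM and 12.8 to 13.5 FPKM, and at 20d the second lies below the first in all 4 libraries.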

How the data were processed

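The authors deposited 1 table of 50936 genes with 16 libraries. Per the file headers it holds FPKM, with 0 written as 0.0001 (read here as 0). The deposited estimated counts are whole numbers, not normalised; 35.2% of those from 1 to 19 are multiples of 4, so 4 counts were taken as about 1 fragment. The sources used here do not give the aligner, counting tool or build. Names are best-hit descriptions (49347 genes).

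Genes with a mean of at least 1 FPKM (24944) were fitted on counts with edgeR 4.0.16 (R 4.3.3; TMM scaling, robust quasi-likelihood test, 4 groups) and adjusted by Benjamini-Hochberg over all of them. The fit was tested on simulated data. Replicates are the labels' biological repeats. The genes and gene lists were chosen with earlier results of these data known. Named are every tested gene described as a galactosyltransferase or galactinol synthase, each list's most abundant gene and those with the smallest adjusted p at 20d over 2d and 6d over 0d, and the 5 described genes most like each gene; neighbours were added after seeing values. Alternatives were DESeq2 1.42.0, limma 3.58.1, other scalings, filters and pseudocounts, a replicate block and each library left out.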

Additional observations from a re-analysis of the deposited data

Results flagged for a closer look

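In 112 groups of 4 libraries, over 28 genes named, 6 groups held a library far from the other 3, beyond Dixon's critical value, where chance gives about 1 in 20. Neither PH02Gene11640 nor PH02Gene07569 was among them. PH02Gene10661 (galactosyltransferase-like) stood at 1.658 FPKM in 0d replicate 2, with the others between 1.194 and 1.251. PH02Gene34943 (UDP-glucose 4-epimerase 1) stood at 905 FPKM in 6d replicate 1, with the others between 915 and 916.6. PH02Gene26217 (UDP-glucose 4-epimerase 3) stood at 6.895 FPKM in 2d replicate 1, above 6.337 to 6.415. PH02Gene46034 (sucrose synthase) stood at 4.444 FPKM in 6d replicate 4, below 4.815 to 4.82. PH02Gene50374 (inositol transporter 1) stood at 10.82 FPKM in 6d replicate 1, below 11.96 to 12.12. PH02Gene41094 (DREB2C-like) stood at 119.3 FPKM in 2d replicate 3, below 123.4 to 124.1.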

How the results depend on the processing

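The call of PH02Gene11640 as lower at 20d than at 2d held under all 26 alternatives, with log2 changes from -1.11 to -1.03. PH02Gene07569 was not called in 25 of 26; with no limit of size its log2 change of 0.30 was called. The difference in log2 ratio between the genes was 1.10 to 1.35 over the alternatives, and 1.21 to 1.29 with each library left out, where p was 0.0571. Same-numbered libraries did not deviate together (correlations of -0.186 to 0.093 over 24 pairs), and 2 of 16 libraries matched best with their own number. With the replicate block the ratio difference of 1.25 had an exact sign-flip p of 0.125, the smallest possible, and no call of either gene changed.

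Called genes at 2d over 0d were 7762, and 11961 with no FPKM filter, 3922 at a mean of at least 5 FPKM and 20005 with no limit of size. At 5 FPKM the counts were 5132 at 6d over 0d, 6237 at 20d over 0d, 1857 at 6d over 2d, 3449 at 20d over 6d and 5056 at 20d over 2d, where fewer genes are tested. With no limit of size they were 21107, 21421, 17873, 19164 and 20578. At 6d over 2d they were 5698 with no filter and 1962 in limma on log2(FPKM + 1). In total-count scaling the median of all genes moved to -0.26, -0.21 and -0.30 at 2d, 6d and 20d over 0d. Low counts limit PH02Gene07569 at 0d and the galactinol synthases, whose counts of calls changed with filter and scaling.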
